A study of Mus musculus with 13 samples.

Results

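The hairpins mmu-mir-183, mmu-mir-96 and mmu-mir-182 form the miR-183 cluster, also called the sensory cluster. Its members were picked by hairpin name in the read counts of all 13 libraries, with every arm kept, and 5 pairs of hairpin and mature miRNA were found among the 1514 pairs listed in any library (3 of 903 hairpins). The cluster was chosen from results of these same libraries. Which contrast led to the choice was not stated. It was taken here to be TgR against FVB/N in hippocampus, where miR-182-5p was known to be lower, and the values of the arms in that contrast are given as a description. The libraries held small RNA from the hippocampus of 3 FVB/N and 3 TgR mice and from the prefrontal cortex (PFC) of 3 FVB/N and 4 TgR mice. TgR mice carry, on the FVB/N strain, a transgene for human AChE-R, the readthrough variant of acetylcholinesterase that stress induces, and they make it constitutively from a minimal CMV promoter and enhancer. The FVB/N mice were wild type and carried no transgene. No further treatment was labelled, the TgR mice were not separated by their behavior, and the age and sex of the sequenced mice were not given in the sources used here. The labels do not say whether hippocampus and PFC came from the same mice.

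A miRNA hairpin is cut into a 5p and a 3p arm, one of which is usually kept in the silencing complex, where bases 2 to 8, the seed, pair with target mRNAs. The hairpins of this cluster are made from a shared primary transcript. They are known from sensory cells, among them photoreceptors, hair cells of the inner ear and olfactory neurons, and from the pineal gland, and changes in the miR-96 seed cause hearing loss in mice and in people.

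On the minus strand of chromosome 6 (GRCm38.p6), in the order of transcription, Mir183 lies at 30169668 to 30169737, Mir96 at 30169446 to 30169551 and Mir182 at 30165918 to 30165992. Only 116 bases separate Mir183 from Mir96, whereas 3453 bases separate Mir96 from Mir182, and the whole span is 3820 bases. In GENCODE M21 the span is intergenic, and no gene other than the 3 miRNA genes overlaps it. The nearest coding genes are Nrf1, which encodes a regulator of mitochondrial genes, 12460 bases away, and Ube2h, which encodes a ubiquitin-conjugating enzyme, 41552 bases away. All 6 arms were found in the RefSeq sequences of GRCm38.p6. They are shown 5′ to 3′ with the seed in capitals, first the 5p arms, which carry nearly all counts, and then the 3p arms.

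miR-183-5p: uAUGGCACugguagaauucacu
miR-96-5p: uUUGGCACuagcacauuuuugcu
miR-182-5p: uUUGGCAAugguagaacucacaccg
miR-183-3p: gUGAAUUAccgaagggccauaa
miR-96-3p: cAAUCAUGuguagugccaauau
miR-182-3p: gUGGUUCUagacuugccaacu

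The 5p arms resemble each other without sharing a full seed. With positions counted from 1 at the 5′ end and the first-named arm's base given first, the seeds of miR-183-5p and miR-96-5p differ by A2U. Those of miR-182-5p and miR-96-5p differ by A8C, and those of miR-182-5p and miR-183-5p by U2A and A8C. Counted over the whole shared length, seed included, miR-182-5p and miR-183-5p are the closest pair, identical at 18 of 22 positions, against 12 of 23 for miR-182-5p and miR-96-5p and 13 of 22 for miR-183-5p and miR-96-5p. A search of the 1679 mature miRNAs in that table for the same 7 seed bases found 1 further miRNA for miR-96-5p, miR-1271-5p on chromosome 13, which is listed in none of the 13 libraries.

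miR-1271-5p: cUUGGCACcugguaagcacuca

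The seed of miR-96-3p is shared by miR-3475-5p (chromosome X), which had 4 counts over all libraries. No other arm of the cluster had such a relative in the sequences searched. These held 1165 of the 1384 mature miRNAs listed in the libraries, and the rest could not be checked.

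Nearly all reads of the cluster came from the 5p arms. miR-182-3p had 9 counts over the 13 libraries, or 0.314% of the 2868 counts of its hairpin (exact 95% binomial interval 0.144% to 0.595%). miR-183-3p had 4 counts, 0.122% of 3290 (0.0331% to 0.311%), and miR-96-3p had 0 of 1055, where the exact interval reaches 0.349% and the floor of 3 counts would be 0.284%. These intervals cover counting error only. The counts of miR-182-3p came from the 6 hippocampal libraries and those of miR-183-3p from 2 FVB/N hippocampal libraries, so that 4 to 5 of the cluster's pairs were listed in each hippocampus and 3 in each PFC library. With at most 3 counts in any library, the 3p arms were too few to be tested.

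The 5p arms were found in every library, at 43 to 765 counts. Levels are given as CPM, reads brought to the same total in each library by TMM scaling, and total depth was 8769851 to 18385985 counts, at which the 3 counts taken as the floor correspond to 0.163 to 0.342 CPM. Over the 13 libraries, miR-183-5p averaged 17.4 CPM, which ranked 354 among the 1514 pairs. miR-182-5p averaged 15.0 CPM (rank 368) and miR-96-5p averaged 5.71 CPM (rank 468).

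In hippocampus, miR-183-5p was at 14.9, 45.9 and 31.2 CPM in the 3 FVB/N mice and at 9.83, 10.2 and 8.45 CPM in the 3 TgR mice. Its TgR libraries lay close together and below every FVB/N library, and the FVB/N libraries spread widely. miR-96-5p, the member tied to hearing, was at 4.81, 12.7 and 12.0 CPM in the FVB/N mice, against 3.69, 4.25 and 2.38 CPM in the TgR mice. Again the groups did not overlap, though the lowest FVB/N library was near the highest TgR library. miR-182-5p was at 16.0, 39.5 and 25.3 CPM in the FVB/N mice, against 9.67, 9.89 and 7.02 CPM in the TgR mice, with no overlap either. In bulk tissue, fewer cells that express the cluster and less of it per cell cannot be told apart.

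The mean of the FVB/N hippocampi was 30.6 ± 15.5 CPM for miR-183-5p, 9.86 ± 4.38 CPM for miR-96-5p and 26.9 ± 11.9 CPM for miR-182-5p (SD, n = 3). That of the TgR hippocampi was 9.50 ± 0.931, 3.44 ± 0.961 and 8.86 ± 1.60 CPM (SD, n = 3). The log2 fold changes, TgR against FVB/N, were -1.69 for miR-183-5p (standard error 0.36), -1.53 for miR-96-5p (0.37) and -1.61 for miR-182-5p (0.32), beside a median over all 726 tested pairs near 0. Only 2, 8 and 5 pairs, in that order, had a lower value. By edgeR's quasi-likelihood test over all pairs, 2 of the 3 arms, miR-183-5p and miR-182-5p, were past an adjusted p of 0.05, beside 3.44% of all tested pairs, and the groups did not overlap for 3 of 3 arms, beside 24.7% of pairs. With DESeq2, 3 of 3 arms were past the adjusted threshold, beside 54 of 726 pairs. Since this contrast was taken as the one behind the choice of the cluster, nothing is read from these counts. Without FVB/N replicate 1, 2 or 3, in that order, 3, 1 and 0 arms passed, beside 12 of 743, 28 of 735 and 1 of 741 pairs. Without TgR replicate 1, 2 or 3, 1, 0 and 0 arms passed, beside 18 of 737, 17 of 742 and 9 of 731 pairs. The log2 fold changes with 1 library left out ran from -2.07 to -1.30 for miR-183-5p, from -1.90 to -1.32 for miR-96-5p and from -1.93 to -1.24 for miR-182-5p.

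**Figure D1:**
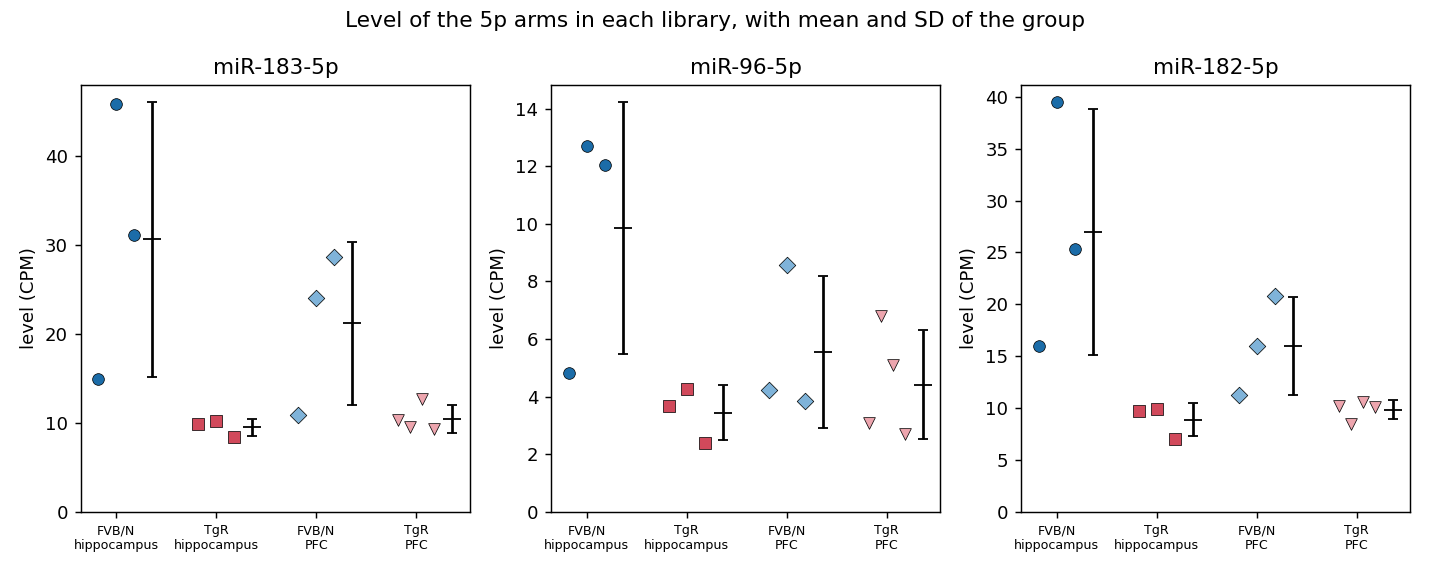
Level in CPM (vertical axes, starting at 0 and scaled per panel) of miR-183-5p, miR-96-5p and miR-182-5p in each of the 13 libraries, by group, with the group mean and SD beside the points. For all 3 arms the TgR hippocampi lie below the FVB/N hippocampi, and FVB/N hippocampus replicate 2 is the highest library.

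FVB/N hippocampus replicate 2 had the highest level of the 6 hippocampi for each of the 3 arms. It was the highest FVB/N hippocampus for 227 of 726 tested pairs (31.3%), against 188 (25.9%) for replicate 1 and 311 (42.8%) for replicate 3. TMM scaling itself works against a library standing above the others for most miRNAs. These counts therefore do not show whether the library was unusual. Without it, the log2 fold change was -1.30 for miR-183-5p and -1.24 for miR-182-5p. FVB/N replicate 1 was the lowest FVB/N library for miR-183-5p and miR-182-5p in hippocampus as well as in PFC.

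**Figure D2:**
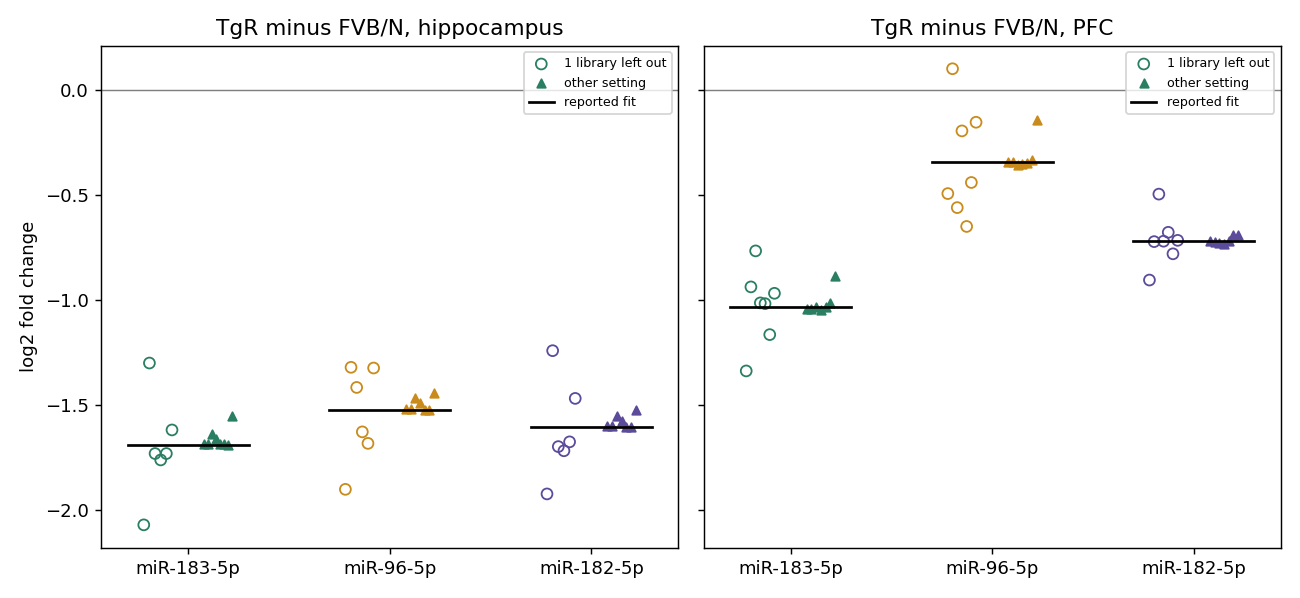
Log2 fold change (vertical axis) of TgR against FVB/N for each 5p arm in hippocampus and in PFC, from the reported fit (bar), with 1 library left out (open circles) and under each other setting (triangles). All values in hippocampus lie at or below -1.24, and in PFC 1 value of miR-96-5p lies above 0.

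miRNAs of other cells also moved between the genotypes in hippocampus, and their part in the cluster's values was not tested. The lists were written from general knowledge of markers, with earlier results of these data known, and the level of a list is the summed CPM of its members. The red blood cell list (led by miR-451a and miR-486b-5p) measured 1321 to 1485 CPM in the FVB/N hippocampi, against 586 to 831 CPM in the TgR ones, with 2 of 5 lower and 0 higher by the same test. The choroid plexus list ran from 808 to 1205 CPM in the FVB/N hippocampi, against 1216 to 5050 CPM in the TgR ones (3 of 5 higher). The list of multiciliated cells ran from 91.6 to 157 and from 416 to 858 CPM (4 of 6 higher, 5 of 6 tested). Most of that sum was miR-34c-5p, which leads the list and averaged 110 and 590 CPM. The other tested member of the list had a negative fitted value (log2 -0.61), not past the threshold. The epithelial list, which holds the miR-200 family, measured 197 to 516 CPM in the FVB/N hippocampi, against 131 to 231 CPM in the TgR ones, with 0 of 7 past the threshold and 5 of 7 tested. The neuroendocrine list ran from 11988 to 17325 CPM in the FVB/N hippocampi, against 8654 to 11452 CPM in the TgR ones. Of its members, 1 of 3 was higher (miR-375-3p, named after its values were seen), from a mean of 11.5 to 37.5 CPM. miR-7a-5p and miR-7b-5p, which lead the list, had negative fitted values (log2 -0.57 and -0.43), not past the threshold. The neuronal list, led by miR-128-3p and miR-9-5p, was at 166542 to 200033 CPM in the FVB/N and 163634 to 189182 CPM in the TgR hippocampi. Between these genotypes, 0 of 6 of the neuronal list and 0 of 3 of the oligodendrocyte list were past the threshold. Over the PFC libraries the neuronal list was at 200204 to 270651 CPM. In PFC, 0 members of these 7 lists were past the threshold, where only 1 of 730 tested pairs passed. Of the multiciliated list, 4 of 6 were tested there.

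The genotypes were also compared in PFC. Its libraries did not enter the hippocampal fit, but results of all 13 libraries were known when the cluster was chosen, and the regions may share mice, so the p-values in PFC are not independent evidence. miR-183-5p was at 10.9, 24.0 and 28.7 CPM in the FVB/N mice, against 10.3, 9.50, 12.7 and 9.33 CPM in the TgR mice. The highest TgR library was above the lowest FVB/N library, so the groups overlapped. miR-96-5p was at 4.22, 8.59 and 3.84 CPM in the FVB/N mice, against 3.09, 6.79, 5.08 and 2.69 CPM in the TgR mice, intermingled. miR-182-5p was at 11.2, 15.9 and 20.8 CPM in the FVB/N mice, against 10.2, 8.46, 10.6 and 10.1 CPM in the TgR mice, where the groups did not overlap but came near each other.

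The fitted differences in PFC were negative for the 3 arms and did not pass the test. On the log2 scale, miR-183-5p differed by -1.04 (standard error 0.31), miR-182-5p by -0.72 (0.22) and miR-96-5p by -0.34 (0.42). The unadjusted p was 0.0086, 0.011 and 0.44 in that order, and the adjusted p = 1.00 for each by edgeR's quasi-likelihood test. At the adjusted threshold 0 of 3 arms passed by edgeR and 0 by DESeq2, beside 0.137% of all 730 tested pairs. At an unadjusted p under 0.05, 2 of 3 arms passed, beside 2.6% of pairs, and 1 of 3 arms had groups that did not overlap, beside 5.07% of pairs. The mean of the FVB/N libraries was 21.2 ± 9.18 CPM for miR-183-5p, 5.55 ± 2.64 CPM for miR-96-5p and 16.0 ± 4.76 CPM for miR-182-5p (SD, n = 3). That of the TgR libraries was 10.5 ± 1.54, 4.41 ± 1.90 and 9.85 ± 0.954 CPM (SD, n = 4). Without FVB/N PFC replicate 2, the value of miR-96-5p turned to 0.10.

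The difference between the genotype contrasts of both regions (hippocampal minus PFC) was -0.68 for miR-183-5p (standard error 0.50), -1.19 for miR-96-5p (0.60) and -0.91 for miR-182-5p (0.41). Since it uses the hippocampal contrast, it is given as a description, with 0 of 3 arms past the adjusted threshold by edgeR and 0 by DESeq2, beside 0.533% of 751 pairs, and 1 of 3 at an unadjusted p under 0.05, beside 8.12%. A lower level in TgR hippocampus was therefore not shown to be particular to the hippocampus.

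**Figure D3:**
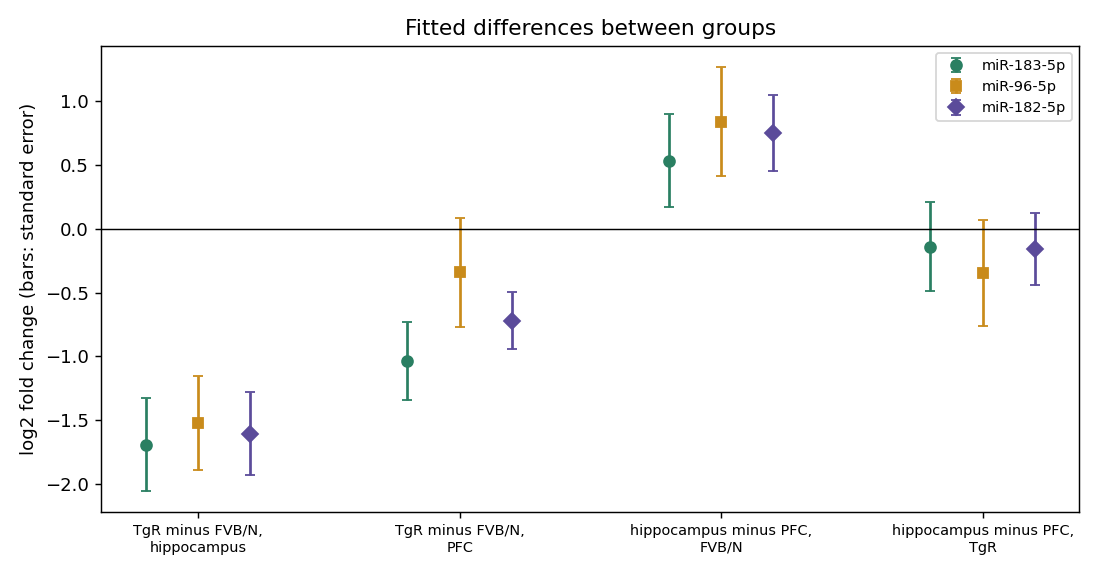
Log2 fold change (vertical axis, bars are 1 standard error) of the 3 arms between genotypes in each region and between regions in each genotype. The hippocampal genotype differences are between -1.69 and -1.53, the PFC ones between -1.04 and -0.34, and the regional ones lie between -0.35 and 0.84.

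Hippocampus and PFC were then compared within each genotype, with the hippocampal libraries shared with the contrast taken as the one behind the choice of the cluster. In FVB/N mice the cluster was higher in hippocampus by the fitted values, but the libraries of both regions overlapped for all 3 arms. The log2 difference, hippocampus against PFC, was 0.54 for miR-183-5p (standard error 0.36, adjusted p = 0.50, edgeR), 0.84 for miR-96-5p (0.43, adjusted p = 0.31) and 0.76 for miR-182-5p (0.30, adjusted p = 0.15). None of the 3 arms passed by edgeR or by DESeq2, beside 5.33% of 751 pairs, 1 of 3 had an unadjusted p under 0.05 (miR-182-5p, 0.023), beside 20.2% of pairs, and 0 of 3 were without overlap, beside 22.4%. Without FVB/N hippocampus replicate 1, its lowest library of that group, miR-182-5p was past the threshold, at 1.08 (adjusted p = 0.039, edgeR), beside 50 of 780 pairs. Without replicate 2, its highest, miR-182-5p was at 0.31 (adjusted p = 0.64, edgeR) and miR-183-5p at 0.063 (adjusted p = 0.96). The regional difference thus depended on the library left out.

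In TgR mice the regions lay closer together. The log2 difference was -0.14 for miR-183-5p (standard error 0.35, adjusted p = 0.91, edgeR), -0.35 for miR-96-5p (0.42, adjusted p = 0.74) and -0.16 for miR-182-5p (0.28, adjusted p = 0.85). Again 0 of 3 arms passed by edgeR or DESeq2, beside 7.99% of pairs, 0 of 3 had an unadjusted p under 0.05, beside 20.1%, and 0 of 3 were without overlap, beside 22.5%. Of the marker lists, in the same contrast, 4 of 5 of choroid plexus, 4 of 6 of multiciliated cells and 3 of 3 of oligodendrocytes were higher in TgR hippocampus, and 3 of 5 of red blood cells and 1 of 6 of neurons were lower, whereas in FVB/N mice 2 of 3 of oligodendrocytes, 1 of 6 of multiciliated cells and 1 of 3 of the neuroendocrine list were higher. Of the multiciliated list, 5 of 6 were tested in each genotype. The part of these lists in the regional values of the cluster was not tested.

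By group mean, each of the 3 arms had the order FVB/N hippocampus, FVB/N PFC, TgR PFC and TgR hippocampus. Neighbors in this order overlapped, except FVB/N and TgR PFC for miR-182-5p. The sum of the 3 arms was 35.7, 98.1 and 68.5 CPM in FVB/N hippocampi, 26.4, 48.5 and 53.2 CPM in FVB/N PFC, 23.6, 24.7, 28.4 and 22.2 CPM in TgR PFC and 23.2, 24.4 and 17.9 CPM in TgR hippocampi. The 7 TgR libraries thus lay within 17.9 to 28.4 CPM whatever the region, while the 6 FVB/N libraries ran from 26.4 to 98.1 CPM. The libraries of a group spread more, relative to their mean, in FVB/N than in TgR mice, though little more for miR-96-5p in PFC. As a percent of the mean, the SD of miR-183-5p was 50.5% in FVB/N and 9.80% in TgR hippocampi, and 43.3% in FVB/N and 14.7% in TgR PFC. For miR-182-5p it was 44.0%, 18.0%, 29.8% and 9.68% in the same order, and for miR-96-5p 44.4%, 27.9%, 47.5% and 43.0%. With 3 to 4 mice per group, this difference in spread was not tested, nor was the percent SD set against that of other miRNAs. Over all miRNAs, chi-square per degree of freedom between 2 libraries of a group was 222 to 476 in FVB/N and 122 to 232 in TgR hippocampi. In PFC it was 315 to 594 in FVB/N and 56.7 to 367 in TgR mice. Chi-square grows with depth and weighs abundant miRNAs most, so it is not comparable with the percent SD of these arms.

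The proportions of the 3 arms varied less for miR-183-5p and miR-182-5p than for miR-96-5p. The ratio of miR-183-5p to miR-182-5p lay between 0.920 and 1.51 in the 13 libraries, with a median of 1.12. That of miR-96-5p to miR-182-5p ran from 0.185 to 0.802 (median 0.376), and that of miR-96-5p to miR-183-5p from 0.134 to 0.714 (median 0.358). Counts of different miRNAs also carry differences in how well each sequence is ligated and amplified, so a ratio is compared between libraries only. Hippocampus and PFC did not differ detectably in these ratios. The log2 difference between regions was -0.084 for miR-183-5p to miR-182-5p (p = 0.50), -0.019 for miR-96-5p to miR-182-5p (p = 0.95) and 0.065 for miR-96-5p to miR-183-5p (p = 0.82), by two-sided exact permutation of the region within each genotype (700 arrangements, smallest possible p 0.00143), with an adjusted p of 0.95 for each of these 3 comparisons.

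Within groups, miR-183-5p and miR-182-5p rose and fell together from mouse to mouse. With each group's mean removed from the log2 CPM, Pearson's r over the 13 libraries was 0.931 (p = 1.9e-04 by exact permutation within groups, the smallest its 5184 arrangements allow, adjusted p = 5.8e-04 over 3 pairs of arms), and Spearman's rho was 0.852 (permutation p = 0.0017, adjusted p = 0.0052). Of 750 other tested pairs, 0 had a higher r with miR-183-5p, and their median r was -0.017. It was 0.899 without FVB/N hippocampus replicate 2 and 0.834 without the 2 libraries farthest from the median. This comparison was added after the data had been seen, and libraries of both regions may share mice.

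miR-96-5p followed its neighbors less closely. Its r was 0.603 with miR-183-5p (exact permutation p = 0.12, adjusted p = 0.18; rho 0.571) and 0.520 with miR-182-5p (exact permutation p = 0.21; rho 0.401). With the 2 farthest libraries left out it was 0.316 and 0.262. Of other pairs, 33 had a higher r with miR-183-5p than miR-96-5p had, although the hairpins of miR-96 and miR-183 are the closest on the chromosome. miR-96-5p also had the fewest counts, 43 to 212 per library.

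**Figure D4:**
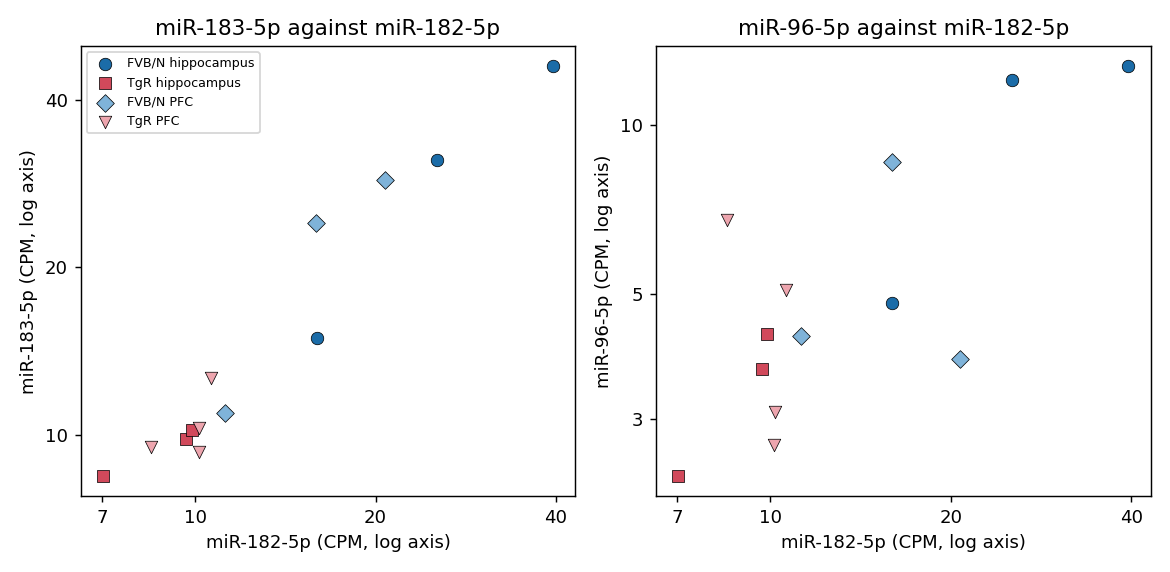
Level of miR-183-5p (left) and of miR-96-5p (right) against that of miR-182-5p in each of the 13 libraries, in CPM on log axes, with a symbol per group. miR-183-5p lies near 1 line with miR-182-5p, at a ratio of 0.920 to 1.51, whereas miR-96-5p scatters.

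Among the 406 other pairs with a mean of at least 10 CPM, the 5 whose log2 CPM was most like the mean of the 3 arms over the 13 libraries were miR-329-5p (Pearson's r 0.803, Spearman's rho 0.451), miR-200a-3p (0.794, 0.582), miR-429-3p (0.784, 0.703), miR-200b-3p (0.763, 0.571) and miR-412-5p (0.719, 0.725). The median r of the 406 was -0.016. These correlations hold the group differences too. With each group's mean removed, r was 0.83 for miR-200a-3p, 0.84 for miR-429-3p and 0.714 for miR-200b-3p, but 0.583 for miR-329-5p and 0.064 for miR-412-5p. By that measure miR-429-3p and miR-200a-3p stood at rank 2 and 3 of the 406 and miR-200b-3p at rank 23. The ranks count pairs, so a mature miRNA listed under several hairpins can hold several ranks. Rank 1 was miR-335-5p, named after its values were seen, with an r of 0.886 within groups and -0.36 over the 13 libraries.

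3 of the 5 thus come from 1 other cluster, Mir200b, Mir200a and Mir429, which spans 1846 bases on the minus strand of chromosome 4 (156053905 to 156055750, GRCm38.p6) and is known from epithelia and from olfactory neurons. miR-200a-3p was at 52.9, 245 and 195 CPM in FVB/N hippocampi, 62.5, 66.4 and 16.3 CPM in TgR hippocampi, 14.6, 45.4 and 38.3 CPM in FVB/N PFC and 15.5, 8.98, 25.9 and 6.89 CPM in TgR PFC. As for miR-183-5p, FVB/N replicate 1 was the lowest of its genotype in both regions, but the TgR and FVB/N hippocampi overlapped. miR-200a-3p was not past the threshold between genotypes in hippocampus, with a log2 difference of -1.76 (standard error 0.62, adjusted p by edgeR = 0.17). Between regions, hippocampus against PFC, its log2 difference was 2.33 in FVB/N mice (adjusted p = 0.051, edgeR) and 1.75 in TgR mice (adjusted p = 0.088), neither past the threshold, and a difference from the regional values of the miR-183 cluster was not tested. miR-329-5p and miR-412-5p come from chromosome 12.

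**Figure D5:**
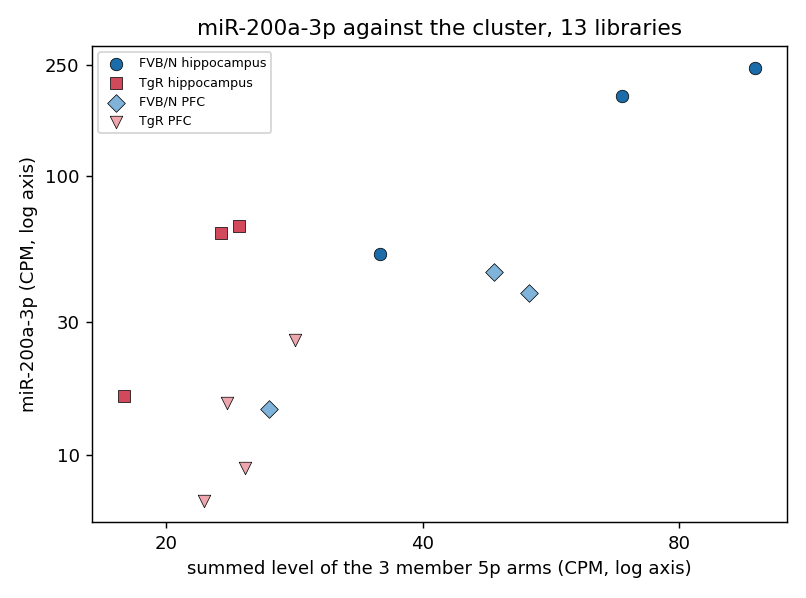
Level of miR-200a-3p (vertical axis) against the summed level of the 3 5p arms of the miR-183 cluster (horizontal axis) in each of the 13 libraries, in CPM on log axes, with a symbol per group. Within FVB/N hippocampi and FVB/N PFC the library lowest for the cluster, replicate 1, is also lowest for miR-200a-3p.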

How the data were processed

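The authors extracted RNA with miRNeasy kits, made libraries from 300 ng of total RNA with the NEBNext small RNA kit, checked reads with FastQC and aligned them to miRBase with miRExpress under default parameters. They deposited, for each library, the raw read count on each pair of hairpin and mature miRNA, without normalization, and unlisted pairs were taken as 0. The genome build was not given in the sources used here. Genotype, region and replicate came from the sample titles.

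Counts were scaled by TMM and tested with edgeR 4.0.16 in R 4.3.3 (filterByExpr with a minimum of 10 counts, quasi-likelihood fit and test, Benjamini-Hochberg adjustment over all tested pairs, threshold 0.05). Genotypes were fitted within each region. Regions, and the difference between genotype contrasts, were fitted over all 13 libraries in 4 groups. Standard errors follow from each log2 difference and the square root of its F. Ratios and correlations were tested by exact permutation in Python 3.11.15. Alternatives were DESeq2 1.42.0, its size factors, a single row per mature miRNA, no filter, a minimum mean of 300 normalized counts, library size only, other sets of libraries in the fit, a replicate block and leaving out each library. The edgeR fits were also tested on simulated data.

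The members, marker lists and tests were chosen with earlier results of these data known. The text names all arms of the cluster, other miRNAs with the same seed, the 5 pairs most like the cluster and the 2 markers of each list with the highest mean level, of which only those that head a list described are printed. 2 others were named after their values were seen, and are marked. p-values rest on the spread between libraries, and depth intervals cover counting error only. Fits over all 13 libraries took 1 spread for the 4 groups. The SD of miR-183-5p, as a percent of the mean, was however 50.5% in FVB/N and 9.80% in TgR hippocampi. The titles name animals for PFC only, and for hippocampus the number of mice comes from the paper. Fits and permutations over all 13 libraries treated them as independent, although both regions may share mice. Libraries of the same group differed by more than sampling noise (chi-square per degree of freedom 56.7 to 594). The transgene's mRNA is not measured by small RNA sequencing, so the genotype labels could not be checked from these counts.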

Additional observations from a re-analysis of the deposited data

How the results depend on the processing

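With edgeR's test, the pairs past the threshold between genotypes in hippocampus numbered 25, but 54 with DESeq2, 63 without a filter, 9 with the replicate block and 1 to 28 with 1 library left out. They numbered 30 with a single row per mature miRNA, 18 with library size only and 24 with the minimum mean. Of the cluster's arms, 2 passed there, 3 with DESeq2, without a filter or with a single row per mature miRNA, 1 with library size only, 1 with a minimum mean of 300 normalized counts (which left 1 arm to test), 0 with the replicate block and 0 to 3 with 1 library left out. Between regions in FVB/N mice, 40 pairs became 91 with DESeq2, 69 without a filter, 24 with the 2 groups alone and 23 to 60 with 1 library left out, and 0 arms became 0 to 1. In TgR mice, 60 pairs became 28 to 62 with 1 library left out. For genotype by region, 4 pairs became 26 with DESeq2, 13 without a filter, 2 with the mean of at least 300, 7 with the replicate block and 2 to 8 with 1 library left out. The causes were not tested. With 1 library left out, miR-96-5p in PFC ran from -0.65 to 0.10, and its lone positive value came without FVB/N PFC replicate 2. The region difference of its ratio to miR-182-5p, -0.019 in all libraries, ran from -0.23 to 0.15 and that of its ratio to miR-183-5p, 0.065, from -0.18 to 0.21. The difference of the latter turned to -0.011 with the replicate block.

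The replicate numbers were not taken to pair the libraries, since in each pair of groups at least 1 same-numbered pair had a correlation of deviations under 0.1. Between regions these were 0.13, 0.050 and 0.19 in FVB/N mice, where each PFC library correlated best with its own number but not each hippocampal one, and 0.12, 0.41 and -0.13 in TgR mice. Whether regions share mice is not labelled, and the PFC numbering is uncertain. Differences between mice limit the precision of the 5p arms, and depth limits the 3p arms.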
